A study of Mus musculus with 4 samples.

Results

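The genes described here encode the signalling machinery of the T cell receptor: the invariant chains of the receptor complex, its coreceptor and accessory surface proteins, the kinases and adaptors that act next to it, and the proteins that restrain it. They were taken by name, as a fixed list of 32 symbols. The list was chosen with earlier results of these data known. All 32 were found among the 25509 genes of the deposited table, and all 32 had enough counts to be tested. The RNA came from naive CD4+ T cells of mouse spleen, sorted as CD25-negative, CD62L high and CD44 low. The cells were either wild type (WT) or Batf3-/-, that is, without a working copy of Batf3, a transcription factor gene of the basic leucine zipper group. Both genotypes received the same culture for 72 h: activating antibodies against CD3 and CD28 together with TGFb, IL-4 and TL1A, which is the TH9 condition of the labels. There were 2 libraries of each genotype. The labels name no strain, age or deleted exon, and they do not say whether the replicates came from separate mice, so the tests speak only to the variation among these 4 libraries. The titles give libraries with the same replicate number a common prefix, whose meaning the labels leave unstated.

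A T cell recognises antigen through a variable receptor dimer that cannot signal by itself and relies on the CD3 and zeta chains. The kinase LCK, brought near by CD4, phosphorylates motifs in these chains, ZAP70 docks on them, and ZAP70 in turn phosphorylates the scaffolds LAT and SLP-76, from which calcium, RAS and NF-kB signalling branch out. Phosphatases, ubiquitin ligases and inhibitory receptors such as CD5 set how strong the signal becomes. In the cultures studied here the pathway was engaged directly, because the stimulating antibodies bind the CD3 complex and CD28.

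Total estimated counts per library ranged from 15624874 to 31098059, and the lowest count of any of the 32 genes in any library was 650. Together the 32 genes took 0.818% to 0.835% of all counts in each library. Batf3 itself stood at 61.7 and 60.5 CPM (library counts scaled to a common depth after TMM normalisation) in WT and at 0.535 and 0.517 CPM without Batf3, so every library carried the level that its label implies. Xist, an RNA of the inactive X chromosome, was at 0.214 and 0.0944 CPM in replicate 1 of WT and Batf3-/- cells and at 166 and 144 CPM in replicate 2. Libraries with the same number were thus alike in this marker of sex. The replicates of each genotype differed in it, so they were not repeat libraries of a single RNA sample. What sex adds to the spread between replicates was not tested. WT replicate 1 also stood apart in base composition: its log2 levels fell by 0.27 for each 10 percentage points of transcript GC content, relative to the mean of the 4 libraries. The same slope was 0.0026 in WT replicate 2 and 0.12 and 0.15 in Batf3-/- replicates 1 and 2. Both WT slopes thus lay below both Batf3-/- slopes. The GC correction used below removes each library's own trend, and with it any genotype difference that follows GC content. Several defining genes of other cell types had no count: Ms4a1 of B cells, Ncr1 of NK cells, Lyz2 of macrophages, Clec9a of dendritic cells and Cpa3 of mast cells were at 0 in every library. Other genes of the same lists were detected: the B cell gene Cd79b stood at 9.62 to 13.1 CPM and the macrophage gene Cd68 at 2.97 to 4.33 CPM. Cd8a, which marks CD8 T cells, was at most 0.18 CPM. Summed marker levels of CD8 T cells were 8.49 to 9.09 CPM in WT and 7.31 to 7.43 CPM without Batf3, mostly from Cd8b1. Those of dendritic cells were 7.76 to 9.43 and 6.66 to 7.40 CPM, mostly from Zbtb46, and those of erythroid cells 0.401 to 0.483 and 0.568 to 0.647 CPM; their part in the results below was not tested.

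None of the 32 genes passed the test between genotypes. In edgeR's quasi-likelihood test 0 of 32 had an adjusted p below 0.05 and 0 of 32 had an unadjusted p below 0.05. Over all 12135 tested genes these shares were 0.132% and 4.8%. DESeq2 and limma-voom also called 0 of the 32, against 0.239% and 0.132% of all genes. Log2 fold changes, given as Batf3-/- minus WT throughout, lay between -0.34 for Malt1 and 0.29 for Zap70. They were above 0 for 16 genes and below 0 for 16, with a median of -0.01, where the median of all tested genes was also -0.01 and 48.4% were above 0. In the edgeR fit, with genotype as the only term and each gene taken singly, the intervals limited the size of a difference. No 95% interval of a fold change reached a 2-fold difference in either direction. The lowest bound was -0.75, a 1.68-fold lower level, and the highest was 0.68, a 1.60-fold higher level. Intervals of the other fits are not given, and the smallest detectable difference was not determined. Both Batf3-/- libraries lay above both WT libraries for 7 of the 32 genes, where 18.2% of all tested genes did so, and below them for 5, where 15.6% did so. In bulk RNA of this kind a different share of cells and a different amount of RNA per cell cannot be told apart.

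**Figure D1:**
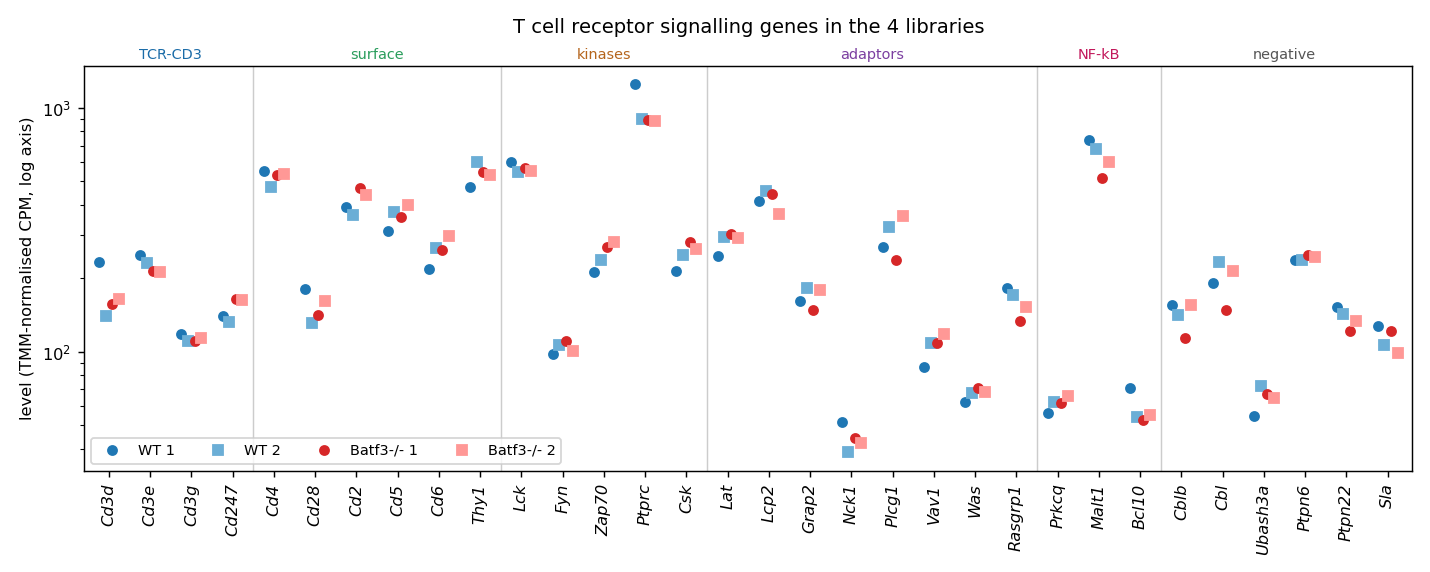
Level of each of the 32 receptor signalling genes in the 4 libraries, in TMM-normalised CPM on a log axis; blue marks are WT and red marks Batf3-/- libraries, circles replicate 1 and squares replicate 2, and the columns are grouped by role. Red and blue marks overlap for 20 of the 32 genes, and Ptprc in WT replicate 1, at 1251 CPM, is the highest value.

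The genes of the CD3 complex showed no shared direction. Here and below, values are given for replicates 1 and 2 in that order. Cd3e, which pairs with both CD3 delta and CD3 gamma, stood at 249 and 230 CPM in WT and at 214 and 213 CPM without Batf3, so that both Batf3-/- libraries were slightly lower. Cd3g stood at 118 and 110 CPM in WT and 111 and 114 CPM without Batf3, and the groups overlapped. Cd3d was at 232 and 140 CPM in WT and at 157 and 164 CPM without Batf3. The WT libraries of Cd3d differed more from each other than from the Batf3-/- libraries, with a log2 gap of 0.73, the widest gap between WT replicates among the 32 genes. On the log2 scale the genotypes differed by -0.22 (SE 0.220, adjusted p = 0.958, edgeR), and leaving out WT replicate 1 turned it to 0.19.

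Cd247, which encodes the zeta chain that carries most of the signalling motifs of the complex, was the CD3-complex gene with the smallest p. Its level was 140 and 132 CPM in WT and 165 and 163 CPM without Batf3, without overlap. Mean levels were 136 ± 5.90 and 164 ± 1.64 CPM (SD, n = 2 each), a log2 difference of 0.27 (SE 0.183, 95% interval -0.12 to 0.65, adjusted p = 0.958, edgeR). Within replicate numbers 1 and 2 the log2 ratios were 0.23 and 0.30. Cd247 lies on chromosome 1 (GRCm38, 165788681 to 165877277), 25.2 Mb from Batf3. On the opposite strand its exons share 3007 bases with those of Pou2f1, a transcription factor gene, which stood at 68.3 and 54.4 CPM in WT and 46.4 and 52.5 CPM without Batf3. The counts of both genes were fractional and added up to whole numbers in every library (4865, 5110, 6714 and 3326, within 0.02), so reads had been divided between them and each gene's own level is uncertain. Summed over the pair, the levels were 209 and 186 CPM in WT and 211 and 215 CPM without Batf3, a log2 ratio of the means of 0.11.

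Among the surface proteins that accompany the receptor, Cd4, the coreceptor for MHC class II, stood at 553 and 474 CPM in WT and 530 and 536 CPM without Batf3. All 4 libraries thus held the defining coreceptor of the labelled cell type. Cd28, which encodes the costimulatory receptor targeted by the culture's second antibody, was at 180 and 131 CPM in WT and 142 and 161 CPM without Batf3. Both genes overlapped between genotypes, and for Cd28 the log2 ratio was -0.35 within replicate number 1 and 0.30 within replicate number 2.

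Cd2, an adhesion receptor that strengthens T cell contacts, was higher in both Batf3-/- libraries (467 and 438 CPM) than in both WT libraries (390 and 362 CPM). Its means were 376 ± 19.8 and 452 ± 20.1 CPM (SD, n = 2 each), a log2 difference of 0.27 (SE 0.189, adjusted p = 0.958, edgeR) and log2 ratios of 0.26 and 0.27 within the replicate numbers. Cd5 and Cd6 are neighbouring genes within 113 kb on chromosome 19 and encode related scavenger-receptor proteins that dampen receptor signals. Cd5 was at 314 and 375 CPM in WT and 355 and 399 CPM without Batf3. Cd6 followed the same order of libraries, at 218 and 267 CPM in WT and 261 and 297 CPM without Batf3 (log2 fold change 0.21, SE 0.194, adjusted p = 0.958, edgeR). The GC correction put Cd6 at -0.0045 and Cd5 at -0.05, and without WT replicate 1 Cd6 was at 0.06. Thy1, the glycolipid-anchored surface marker of mouse T cells, stood at 474 and 601 CPM in WT and 547 and 529 CPM without Batf3. For Thy1 the group means were nearly equal, at 538 CPM in each genotype.

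The kinases and phosphatases at the receptor were led by Ptprc, which encodes CD45, the phosphatase that keeps LCK ready to act. Ptprc stood at 1251 and 897 CPM in WT and 888 and 885 CPM without Batf3. WT replicate 1 was high and the other 3 libraries were close together. On the log2 scale the genotypes differed by -0.28 (SE 0.208, adjusted p = 0.958, edgeR). Ptprc was the single gene of the 32 whose call changed under any setting tried: without WT replicate 2, which leaves WT replicate 1 as the only WT library, it passed at a log2 fold change of -0.50 (adjusted p = 0.0453, edgeR). In that fit 4.46% of all tested genes were called. Dropping WT replicate 1 instead brought Ptprc to -0.03, and the GC correction on all 4 libraries brought it to -0.10.

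Lck, the kinase that starts the cascade, stood at 599 and 543 CPM in WT and 566 and 552 CPM without Batf3. Fyn, a second SRC-family kinase of T cells, was at 97.3 and 106 CPM in WT and 110 and 100.7 CPM without Batf3. Both genes overlapped between genotypes. Zap70, the kinase recruited to phosphorylated CD3 and zeta chains, was at 212 and 238 CPM in WT and 269 and 281 CPM without Batf3. These groups did not overlap, and the mean went from 225 ± 18.6 to 275 ± 8.34 CPM (SD, n = 2 each; log2 fold change 0.29, SE 0.188, 95% interval -0.10 to 0.68, adjusted p = 0.958, edgeR). The log2 fold change of Zap70 was 0.20 to 0.38 with each library left out in turn. Removing each library's GC trend brought it to -0.0099. Csk, the kinase that switches SRC-family kinases off, had a similar pattern, at 213 and 250 CPM in WT and 282 and 264 CPM without Batf3, and its log2 fold change of 0.24 became -0.08 after the same correction.

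Of the adaptors and proximal effectors, Lat, the membrane scaffold phosphorylated by ZAP70, stood at 246 and 294 CPM in WT and 304 and 291 CPM without Batf3. Lcp2, which encodes SLP-76, was at 416 and 458 CPM in WT and 441 and 367 CPM without Batf3. Grap2, whose product GADS links LAT to SLP-76, was at 162 and 182 CPM in WT and 147 and 179 CPM without Batf3. The core scaffold therefore overlapped between genotypes for each of its 3 parts. Plcg1, the phospholipase that releases calcium and diacylglycerol signals, was at 268 and 323 CPM in WT and 238 and 360 CPM without Batf3. Its Batf3-/- libraries had the widest log2 gap of any of the 32 genes, 0.59, and its log2 fold change was 0.28 without Batf3-/- replicate 1 and -0.31 without Batf3-/- replicate 2. As with Cd247, its fractional counts added up to whole numbers with those of an opposite-strand gene, Zhx3, which took 110 to 286 counts per library.

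Rasgrp1, which couples diacylglycerol to RAS, was lower in both Batf3-/- libraries (133 and 153 CPM) than in both WT libraries (182 and 171 CPM). Its mean was 176 ± 8.17 CPM in WT and 143 ± 13.9 CPM without Batf3 (SD, n = 2 each), a log2 difference of -0.30 (SE 0.186, 95% interval -0.69 to 0.09, adjusted p = 0.958, edgeR). Leaving out each library in turn gave -0.40 to -0.21, and the GC correction gave -0.21. Vav1, an exchange factor that drives actin changes, stood at 86.5 and 107.9 CPM in WT and 108.1 and 118 CPM without Batf3 (log2 fold change 0.22, SE 0.190, adjusted p = 0.958, edgeR). The actin regulator Was, on the X chromosome, was at 61.9 and 67.7 CPM in WT and 70.8 and 68.1 CPM without Batf3. Nck1, an adaptor that binds the cytoplasmic tail of CD3 epsilon, was the least counted of the genes, at 51.3 and 38.6 CPM in WT and 44.3 and 42.0 CPM without Batf3.

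In the branch that leads to NF-kB, protein kinase C theta (Prkcq) acts above the BCL10 and MALT1 complex. Malt1, the protease of that complex, had the most negative log2 fold change and the smallest p of the 32 genes. It stood at 741 and 676 CPM in WT and at 518 and 601 CPM without Batf3, without overlap. The means were 709 ± 45.8 and 559 ± 59.1 CPM (SD, n = 2 each), which put the fitted Batf3-/- level at 78.9% of WT (log2 fold change -0.34, SE 0.195, 95% interval -0.75 to 0.07, unadjusted p = 0.0966, adjusted p = 0.958, edgeR). Each library left out in turn gave -0.45 to -0.24, and the GC correction gave -0.21. Its partner Bcl10 was at 70.6 and 53.8 CPM in WT and 52.5 and 55.0 CPM without Batf3 (log2 fold change -0.21, SE 0.197, adjusted p = 0.958, edgeR), and dropping WT replicate 1 brought it to -0.01. Prkcq stood at 56.0 and 61.9 CPM in WT and 61.5 and 65.9 CPM without Batf3.

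The negative regulators gave 4 log2 fold changes below 0 and 2 above. Cbl and Cblb encode ubiquitin ligases that mark signalling proteins for removal. Cbl was at 191 and 232 CPM in WT and 148 and 213 CPM without Batf3 (log2 fold change -0.23, SE 0.208, adjusted p = 0.958, edgeR), and Cblb was at 155 and 141 CPM in WT and 114 and 155 CPM without Batf3. Both were lowest in Batf3-/- replicate 1, and without that library their log2 fold changes were 0.01 and 0.06. Ptpn22, a phosphatase of LCK and ZAP70, was lower in both Batf3-/- libraries, at 121 and 134 CPM against 153 and 143 CPM in WT (log2 fold change -0.22, SE 0.184, adjusted p = 0.958, edgeR). Ptpn6, which encodes the phosphatase SHP-1, stood at 238.0 and 238.3 CPM in WT and 250 and 243 CPM without Batf3. Ubash3a, a regulator of the receptor's surface level and signal, stood at 54.6 and 72.1 CPM in WT and 66.8 and 64.5 CPM without Batf3. Sla, an adaptor that promotes removal of the receptor complex, stood at 127 and 106 CPM in WT and 122 and 98.5 CPM without Batf3.

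**Figure D2:**
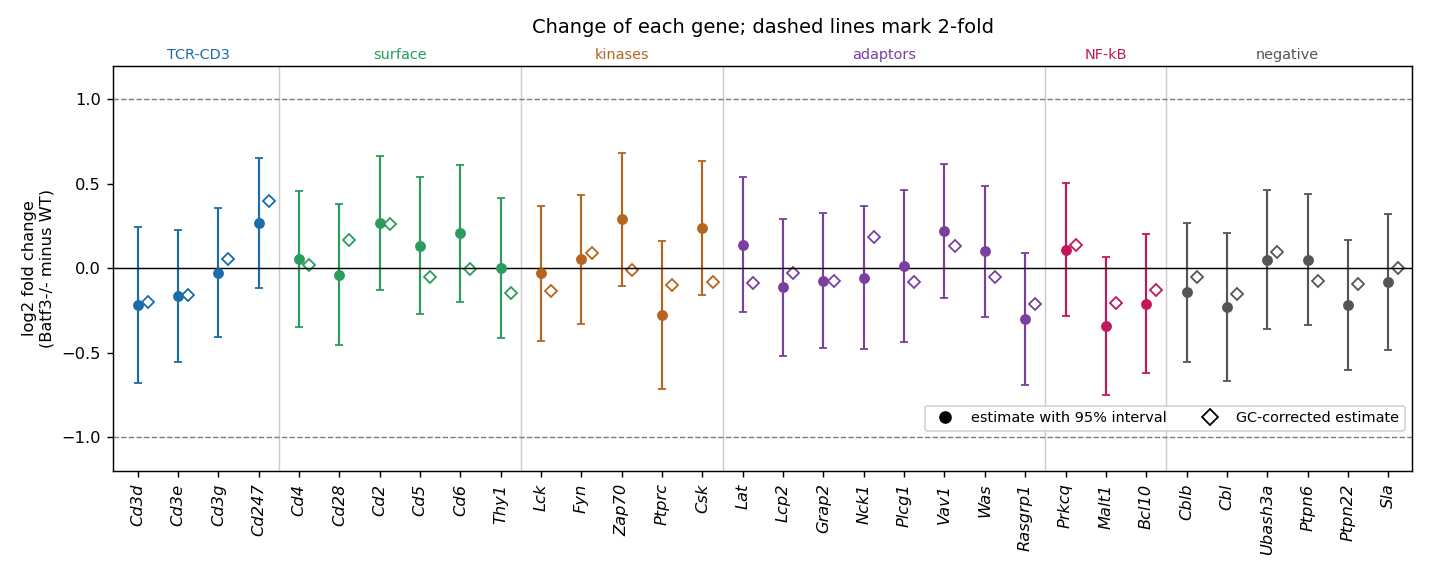
Log2 fold change of each gene, Batf3-/- minus WT, with its 95% interval from edgeR's fit of 2 libraries per genotype (filled circles), and the estimate after correction for GC content (open diamonds); dashed lines mark a 2-fold difference and colours mark roles. Every interval spans 0 and lies between -0.75 and 0.68, and several diamonds, such as those of Zap70 and Csk, lie on the other side of 0.

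Most of the differences were smaller than the gap between the WT replicates, which was the wider of the replicate gaps for 21 of the 32 genes. For 20 of the 32 genes the absolute log2 fold change was below its own standard error, and for 22 it was below the log2 gap between the WT replicates. Among the 66 other pathway genes tested, described below, these counts were 45 and 46. The shares over all tested genes, and the count against the gap between Batf3-/- replicates, were not determined. The gap lies between single libraries, whereas the fold change compares groups of 2. The median gap was 0.20 between WT replicates and 0.09 between Batf3-/- replicates, compared with 0.29 and 0.19 over all tested genes. These medians are not matched for level: each of the 32 genes had at least 650 counts per library, and many tested genes had fewer. Within replicate number 1 the median log2 ratio of the 32 genes was -0.06, and within number 2 it was 0.03. The ratios had the same sign in both numbers for 18 of the 32 genes and for 38 of the 66 other pathway genes.

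The small differences were ordered by the base composition of the transcripts. Of the 15 genes whose transcript GC content was above the median of all tested genes (50.2%), 12 had a log2 fold change above 0, with a median of 0.10. Among the other 17 genes, 4 were above 0 and the median was -0.11. All tested genes showed the same division, with 72.4% above 0 on the GC-rich side and 24.4% on the GC-poor side. Across the 32 genes the log2 fold change went with GC content at a Pearson r of 0.61 and a Spearman rho of 0.63, and across 12105 tested genes at 0.43 and 0.59. These correlations are across genes measured in the same 4 libraries, and genes are not independent replicates. Within replicate number 1, which contains WT replicate 1, the Pearson r over the 32 genes was 0.66, and within replicate number 2 it was 0.12. Across 12105 tested genes the Pearson r was 0.42 and 0.19, and the Spearman rho 0.56 and 0.27, in the same order. Leaving out WT replicate 1 changed the sign of 11 of the 32 log2 fold changes.

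With offsets that remove each library's trend on GC content, the relation over the 32 genes was -0.23 (Pearson) and -0.10 (Spearman). The offsets carry no genotype term, and the GC slopes of WT and Batf3-/- libraries did not overlap. A library trend and a genotype difference that follows GC content therefore cannot be told apart here. The corrected log2 fold changes ran from -0.21 to 0.40, with a median of -0.053. Of the 32 genes, 11 were above 0. Over all tested genes 47.7% were above 0 after the correction, with a median of -0.0093. The sign had changed for 13 of the 32, among them the kinases Zap70 and Csk and the scaffold Lat. How often the sign changed over all tested genes was not determined, here or without WT replicate 1. After the correction 0 of 32 genes passed in edgeR and 1 had an unadjusted p below 0.05, where 2.83% of all tested genes did. That gene was Cd247, at a log2 fold change of 0.40 (unadjusted p = 0.0275, adjusted p = 1.00, edgeR). Its transcript is GC-poor (44.4%), and it lay above 0 both before and after the correction, with the read sharing described above.

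**Figure D3:**
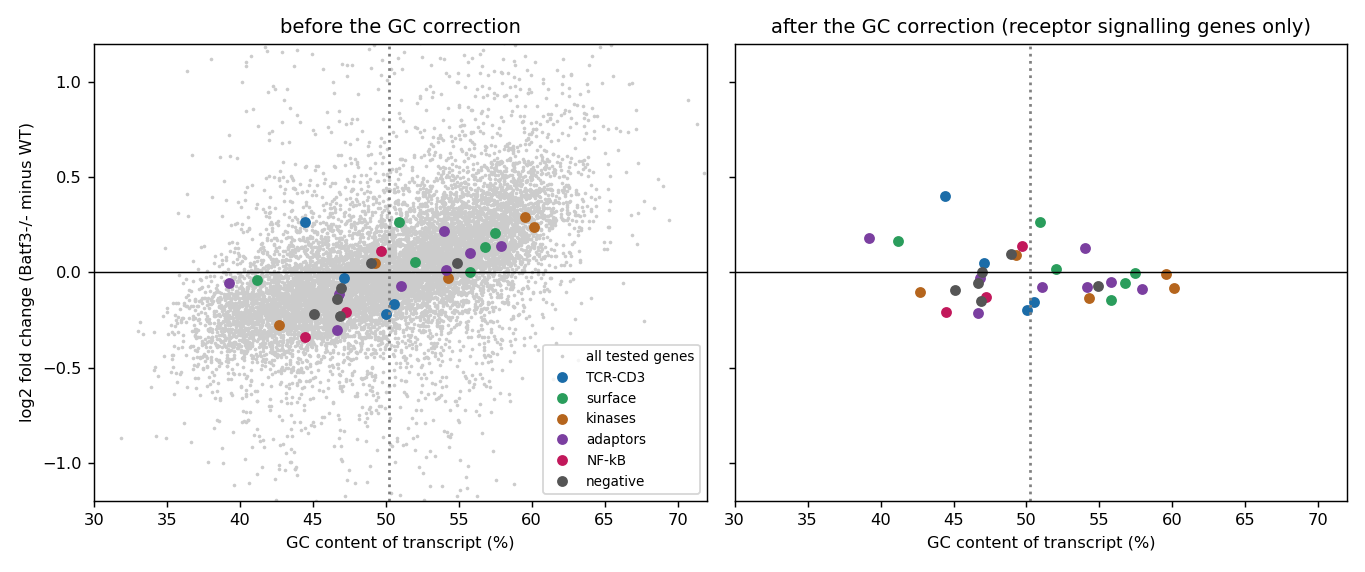
Log2 fold change, Batf3-/- minus WT, against the GC content of each gene's longest coding transcript, before (left) and after (right) the GC correction; grey points, on the left only, are all tested genes, coloured points the 32 receptor signalling genes by role, and the dotted line is the median GC content of tested genes. On the left the coloured points rise with GC content (r = 0.61) and on the right they do not (r = -0.23); 123 of 12105 genes lie outside the plotted range.

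Levels of different genes were compared per kilobase of the longest coding transcript in the annotation, which may not be the isoform these cells use. On this scale the surface proteins Cd2 (326 ± 17.1 CPM per kb in WT and 392 ± 17.5 in Batf3-/- cells, SD, n = 2 each) and Thy1 (310 ± 51.4 and 310.2 ± 7.47) were highest, followed by the kinase Lck (261 ± 17.98 and 256 ± 4.58). In WT cells Cd2 and Thy1 did not differ beyond their spread. Ubash3a (8.30 ± 1.62 and 8.60 ± 0.212) and Nck1 (10.03 ± 2.01 and 9.65 ± 0.366) were lowest. Lck exceeded Fyn 10.04 and 8.33 times in WT, and 8.38 and 8.94 times without Batf3. The ubiquitin ligases Cbl and Cblb and the kinase Prkcq were also near the lower end, between 15.9 and 22.3 CPM per kb as group means.

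Within the receptor complex, Cd3e had the highest length-scaled level, at 164 ± 9.26 CPM per kb in WT and 146 ± 0.558 in Batf3-/- cells (SD, n = 2 each). Cd3d (115 ± 40.6 and 99.0 ± 3.03) and Cd3g (112 ± 5.55 and 110 ± 2.20) came next and did not differ from each other beyond their spread in WT cells. Cd247 was lowest, at 46.0 ± 2.00 and 55.4 ± 0.554. The ratio of Cd3e to Cd247 was 3.59 and 3.52 in WT, and 2.62 and 2.65 without Batf3. This ratio was singled out after its values were seen, it was not tested, and it carries the division of reads between Cd247 and Pou2f1.

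**Figure D4:**
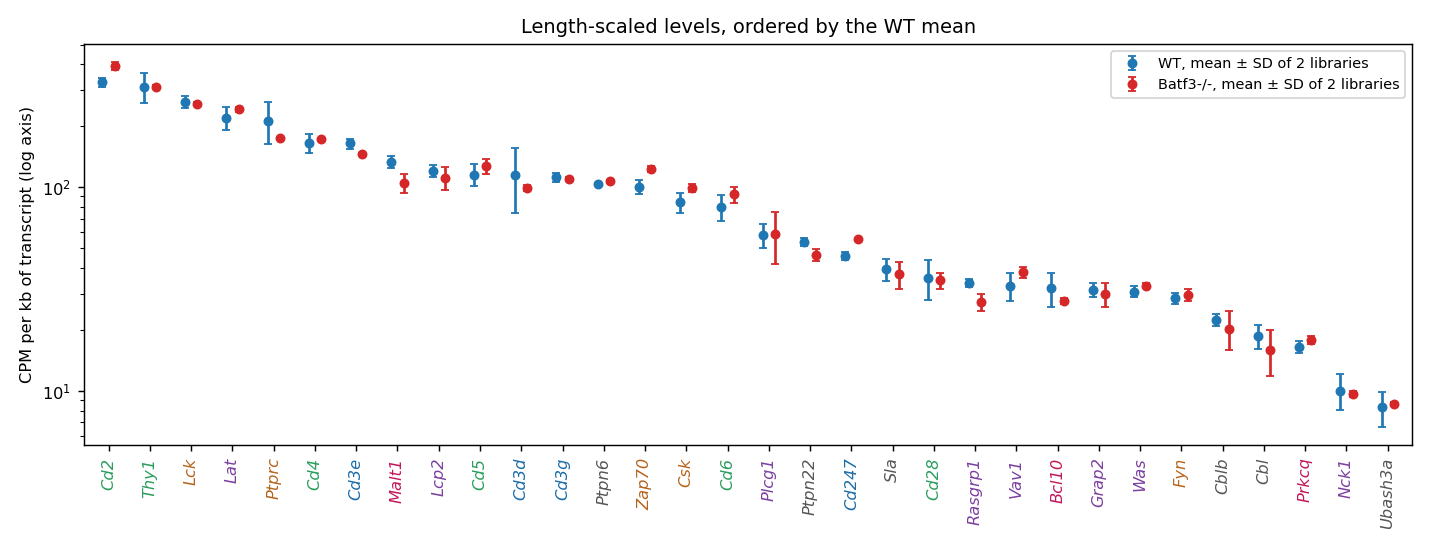
Length-scaled level of each gene, in CPM per kb of its longest coding transcript on a log axis, as mean ± SD of 2 libraries for WT (blue) and Batf3-/- cells (red), ordered by the WT mean; name colours mark the same roles as in the plot of fold changes. Levels run from 326 (Cd2) to 8.30 (Ubash3a) in WT.

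Several of the genes are chromosomal neighbours. Cd3g, Cd3d and Cd3e lie within 40.1 kb of chromosome 9, where Cd3g and Cd3d start 1.36 kb apart and are transcribed away from each other, and Thy1 and Cbl lie in the same 0.966 Mb. Ptpn6 and Cd4 lie within 168 kb of chromosome 6. Of the 4 genes on chromosome 1, which also carries Batf3, Cd247 is the nearest to it and Ptprc follows at 52.9 Mb.

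BATF3 belongs to the AP-1 group of factors, so the promoters were searched for letters that such factors are known to bind. RefSeq promoter windows on GRCm38.p6, from 250 bases before to 50 after a start site, were found for 25 of the 32 genes, 32 windows in all. The AP-1 core TGANTCA, read on both strands, was in 0 of these 32 windows and in 7.81% of all 32851 windows. The related core TGACGTCA was in 1 window, that of Zap70, and in 1.79% of all windows. ETS and RUNX factors act at many T cell genes: CCGGAA was in 3 windows (Bcl10, Cbl and Zap70) against 14.9% of all, and TGTGGT in 5 (Lat, Lck, Ptpn22, Was and, at another start site, Zap70) against 16.8%. A match is a description of letters and not a bound site.

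Of the windows, 4 are shown for the receptor chains and kinases described above: Cd3d and Cd247, which hold none of the 4 motifs, and Lck and Zap70, which do. Capitals mark TGTGGT in Lck, and CCGGAA and then TGACGTCA in Zap70. The TGACGTCA of Zap70 begins 18 bases before the start site.

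Cd3d (chr9:44981536-44981835, plus strand): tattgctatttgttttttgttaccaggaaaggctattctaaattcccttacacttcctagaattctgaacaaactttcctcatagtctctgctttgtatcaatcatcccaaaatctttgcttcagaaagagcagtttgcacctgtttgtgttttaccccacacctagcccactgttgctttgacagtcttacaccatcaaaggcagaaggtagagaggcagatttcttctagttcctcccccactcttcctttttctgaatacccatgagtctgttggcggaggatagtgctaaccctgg
Cd247 (chr1:165788431-165788730, plus strand): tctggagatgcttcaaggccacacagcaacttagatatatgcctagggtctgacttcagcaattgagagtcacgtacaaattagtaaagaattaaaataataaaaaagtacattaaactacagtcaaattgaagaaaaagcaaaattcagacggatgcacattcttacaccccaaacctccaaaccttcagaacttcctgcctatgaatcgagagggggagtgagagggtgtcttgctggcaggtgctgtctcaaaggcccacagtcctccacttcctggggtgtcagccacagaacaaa
Lck (chr4:129573592-129573891, minus strand): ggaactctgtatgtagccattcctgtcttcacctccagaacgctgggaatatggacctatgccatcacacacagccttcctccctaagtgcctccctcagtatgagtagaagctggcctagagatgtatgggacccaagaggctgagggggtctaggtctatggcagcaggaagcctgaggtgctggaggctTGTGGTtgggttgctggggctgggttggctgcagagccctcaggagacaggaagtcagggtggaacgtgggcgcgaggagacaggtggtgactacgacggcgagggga
Zap70 (chr1:36761548-36761847, plus strand): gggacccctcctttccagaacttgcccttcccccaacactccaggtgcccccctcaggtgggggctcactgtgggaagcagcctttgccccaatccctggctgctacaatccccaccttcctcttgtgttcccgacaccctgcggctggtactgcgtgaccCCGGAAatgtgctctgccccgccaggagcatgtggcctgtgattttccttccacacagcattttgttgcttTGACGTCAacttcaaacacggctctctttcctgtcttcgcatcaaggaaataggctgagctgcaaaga

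Other genes of the pathway were read from the same fit, using a list of 70 genes chosen for what they do. Of these, 66 were in the table and 66 were tested; Trac, Trbc1, Trbc2 and Trdc, which encode constant parts of the receptor itself, were not analysed here. In edgeR 0 of 66 passed, 1 had an unadjusted p below 0.05, and 30 had a log2 fold change above 0, with a median of -0.03. DESeq2 and limma-voom called 0 of 66. Of the 19 TEC kinases and further adaptors, 9 were above 0, and the smallest p was that of Pag1, an adaptor that anchors CSK (log2 fold change -0.39, SE 0.212, adjusted p = 0.958, edgeR). The calcium and NFAT genes had 4 of 13 above 0, with Itpr2, a calcium release channel, at -0.31. RAS and MAP kinase genes had 4 of 11 above 0, with the kinase gene Map2k2 at 0.33; after the GC correction 8 of 11 were above 0 and Map2k2 was at 0.0091. After the GC correction 31 of the 66 were above 0, where 47.7% of all tested genes were, and 21 had changed sign. Under that correction 0 of 66 passed and 2 had an unadjusted p below 0.05, Dok2 and the receptor-associated adaptor gene Trat1, which was low and uneven at 2.74 and 1.17 CPM in WT and 4.31 and 1.62 CPM without Batf3.

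The further negative regulators had 10 of 13 genes above 0, with a median of 0.09; after the GC correction 8 of 13 were above 0, with a median of 0.03. The median transcript GC content of this set was 51.8%, on the side where 72.4% of all tested genes were above 0. Dok2, an adaptor that restrains RAS downstream of the receptor, had the smallest p of the 66. It stood at 45.8 and 42.0 CPM in WT and at 78.9 and 66.5 CPM without Batf3, without overlap (log2 fold change 0.73, SE 0.192, 95% interval 0.33 to 1.13, unadjusted p = 0.00123, adjusted p = 0.294, edgeR). On the log2 scale Dok2 stood at 0.78 with WT replicate 1 dropped and at 0.67 with WT replicate 2 dropped. Each of these fits rests on the other WT library alone. With the replicate number as a block Dok2 passed (log2 fold change 0.73, adjusted p = 0.0153, edgeR), a fit in which 0.923% of all tested genes were called. After the GC correction its log2 fold change was 0.50, and it did not pass. Its relative Dok1 was at 16.2 and 17.3 CPM in WT and 22.2 and 21.2 CPM without Batf3 (log2 fold change 0.37, adjusted p = 0.958, edgeR), and at a log2 fold change of 0.12 after the GC correction.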

How the data were processed

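Polyadenylated RNA of 4 cultures was made into stranded libraries, per the labels' protocols. The authors deposited RSEM expected counts per gene, made with STAR 2.5.0 and RSEM 1.2.25 on GRCm38, per the submitters' processing notes; for the strand setting and annotation release the status is: not given in the sources used here. The 92 spike-in entries, all at 0, were left out. Samples were grouped by the genotype label. Expected counts were rounded and fitted with edgeR 4.0.16 under R 4.3.3: filterByExpr (minimum count 10, minimum total 15), TMM, robust quasi-likelihood test, two-sided, genotype as the only term, Benjamini-Hochberg adjustment over 12135 genes at 0.05. Levels are TMM-scaled CPM. Intervals at 95% use the fit's standard errors. Log2 ratios within replicate numbers used a prior count of 0.5. Positions, length and GC content came from GENCODE M21 (12105 tested genes matched), using the longest coding transcript, and promoter windows from RefSeq. Replicates differed far beyond sampling noise (chi-square per degree of freedom 63.0 in WT and 22.8 in Batf3-/-), so none were merged. The fits were also run on simulated counts with planted changes of at least 2-fold, a common dispersion and no GC trend. The outcome is not given here, and that run does not speak to smaller differences or to the GC trend. All 32 genes were named, with fold changes and adjusted p for the 2 with the smallest p in each role, and, of the other pathway genes, the smallest p in each set (1 of the 5 sets is not reported here by itself); the fold changes of further genes and Dok1 were added after their values were seen. The members, lists and settings were chosen with earlier results of these data known. Alternatives tried were upper-quartile scaling, DESeq2's size factors, 2 other filters, DESeq2 1.42.0, limma-voom (limma 3.58.1), legacy=TRUE, each library left out, the replicate number as a block, and loess offsets on GC content (span 0.3), alone and with the block. Summed levels of cell type marker lists over the 4 libraries were 1210 to 1395 CPM for T cell genes outside the 32 (6 genes), 7.31 to 9.09 for CD8 T cells (2, mostly Cd8b1), 9.88 to 13.2 for B cells (5, mostly Cd79b), 0.0647 to 0.437 for NK cells (4), 3.31 to 4.59 for macrophages and monocytes (6, mostly Cd68), 6.66 to 9.43 for dendritic cells (6, mostly Zbtb46), 0.0647 to 0.255 for gamma-delta T cells (1), 0.401 to 0.647 for erythroid cells (5) and 0 for mast cells and basophils (4).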

Additional observations from a re-analysis of the deposited data

How the results depend on the processing

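The count of receptor signalling genes called by the test stayed at 0 under every setting except leaving out a library, where it ranged from 0 to 1 (Ptprc, at a log2 fold change of -0.50 without WT replicate 2; range over the libraries left out -0.50 to -0.03). For the other pathway genes the count was 0 to 1 with each library left out and 1 with the replicate block, each time Dok2. The number of the 32 genes above 0 was 16, and 10 to 18 over the settings: it was 10 under the GC correction with the replicate block and 17 without WT replicate 1. The GC correction changed the sign of 13 of 32 log2 fold changes. Zap70 went to -0.0099 and Cd6 to -0.0045 with it, and to -0.0098 and -0.0061 with the block added. Cd3d ranged from -0.54 to 0.19 and Cbl from -0.51 to 0.0113 over the libraries left out. The cause of these changes was not tested. The scaling, filter and tool settings changed the sign of at most 1 of the 32 genes each. The replicate block called 0 of the 32. Over all tested genes the 16 calls (10 higher, 6 lower) became 29 with DESeq2, 10 (5 higher, 5 lower) with the GC correction, 112 with the replicate block, 88 with both, and 62, 553 and 38 without WT replicate 1, WT replicate 2 and Batf3-/- replicate 2. Same-numbered libraries share a title prefix, whose meaning the labels do not give, and were alike in Xist (0.214 and 0.0944 CPM in replicate 1, 166 and 144 in replicate 2); deviations of same-numbered libraries correlated at 0.11 over tested genes, with 2 pairs. The smallest detectable difference was not determined, and leaving out a library leaves 1 in its group, which is then assumed to vary like the other group.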
